A study of Mus musculus with 6 samples.

Results

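Nanog, Dppa3, Gdf3 and Apobec1 lie side by side on mouse chromosome 6, and the ATAC-seq peaks in and around these 4 genes were compared between mouse ESCs and 2 kinds of EPSC. Peaks of the 3 deposited lists were selected on their position, each overlapping a member gene extended by 20 kb before its start and after its end. This rule found 31 peaks, which merged into 17 regions out of 65518 regions in the whole series. Which lists held a peak, and how wide it was, is therefore a description of the chosen stretch, and nothing in it could be tested, because each cell state had 1 list, deposited for its 2 technical replicates together.

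In ATAC-seq a transposase inserts adapters into accessible DNA, so that a peak marks a stretch of open chromatin. The ESCs were of J1, a line of the 129SV strain, and the EPSCs had been converted from ESCs. ESCs were kept on inactivated mouse embryonic fibroblasts or on gelatin, whereas the EPSCs were passaged without feeders before ATAC-seq. ESCs were grown in medium with 15% serum and LIF, the GSK3 inhibitor CHIR99021 (3 µM) and the MEK inhibitor PD0325901 (1 µM). D-EPSCs, made by the conditions of the Deng group, received LIF and CHIR99021 (3 µM) with dimethindene maleate and minocycline hydrochloride (2 µM of each) in N2B27 medium with 5% KSR, a serum replacement. L-EPSCs, made by those of the Liu group, received LIF, CHIR99021 (3 µM) and PD0325901 (1 µM) in DMEM/F12 medium with 20% KSR, together with the Src-family inhibitor A-419259 (0.3 µM), the tankyrase inhibitor XAV939 (5 µM), JNK inhibitor VIII (4 µM) and the p38 inhibitor SB203580 (10 µM). Cell state, medium and library preparation go together in this design and cannot be told apart, and the technical replicates hold no information on separate cultures. Over chromosomes 1 to 19 with X and Y there were 28965 peaks for ESCs, 50225 for D-EPSCs and 46601 for L-EPSCs. The lists carry no read counts, so the depth behind a peak is unknown and a missing peak does not show closed chromatin.

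Of the 4 genes, Nanog, Dppa3 and Gdf3 are known for their roles in early embryos and pluripotent cells. Nanog encodes a homeodomain transcription factor that stabilises self-renewal. Dppa3, also called Stella, encodes a maternal factor that guards DNA methylation in the zygote. Gdf3 encodes a secreted ligand of the TGF-beta family that acts through the Nodal receptors, and Apobec1 encodes the cytidine deaminase that edits apolipoprotein B mRNA. Transcription at such loci is controlled by a promoter at the start of the gene and by distal enhancers, where Oct4 (Pou5f1) and Sox2 often bind neighbouring POU and SOX words in the DNA. The proximal Nanog promoter is a textbook example of such a composite site.

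On mm9 with the GENCODE M1 annotation, Nanog spans 122657507 to 122664651 and is read on the plus strand from 4 annotated starts. Dppa3 spans 122576428 to 122580290 on the plus strand, and its outermost start lies at -81.1 kb from that of Nanog. Gdf3 (122555421 to 122560105) and Apobec1 (122527810 to 122552462) are read on the minus strand. Distances are given in the direction of transcription, from the outermost start of the nearest member to the midpoint of a region. The 4 windows together reach over 176.8 kb and leave a gap between Dppa3 and Nanog.

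**Figure D1:**
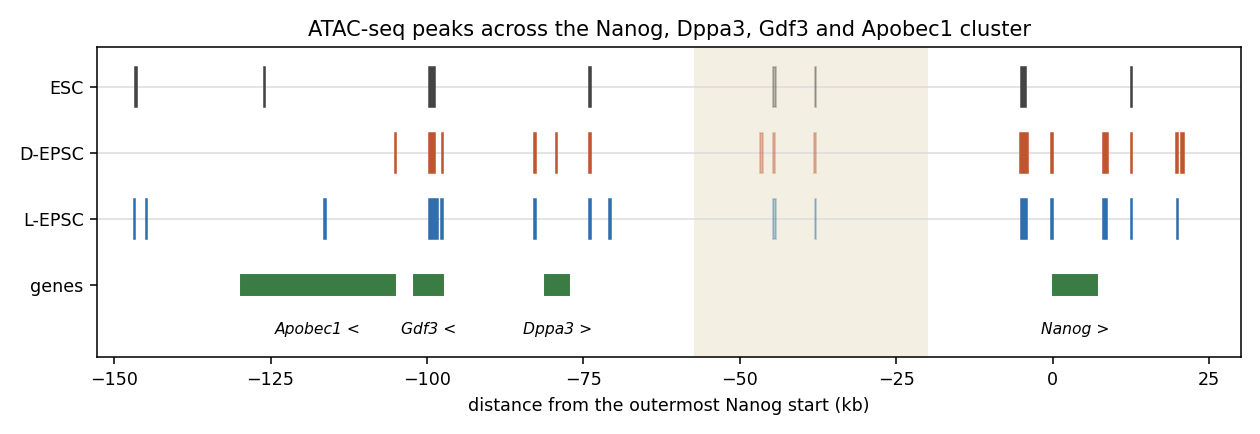
Positions of the peaks of the ESC, D-EPSC and L-EPSC lists (rows) against distance from the outermost Nanog start in kb, with the 4 genes as green bars and their direction as an arrowhead. Solid boxes are the 31 peaks of the cluster, and pale boxes in the shaded stretch are peaks of the 3 regions that lie between the windows. The ESC row holds 6 solid peaks, the D-EPSC row 12 and the L-EPSC row 13.

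The sequences of 6 regions are shown because the description below turns on them. They are the 3 regions near Nanog and Dppa3 found in both EPSC lists and not in ESCs that lie closest to, or are widest beside, these genes, and 3 regions found in all lists. Each is the part of the region shared by the lists that hold it, cut to at most 300 bases around its middle, and the Nanog promoter is cut just before the outermost start. They are plus-strand sequences of the mm9 reference, which is not the 129SV strain of the cells. Capitals mark the searched words, which are ATGCAAA for POU factors, CATTGT for SOX factors, ATCAAAG for TCF/LEF, GGGTGTGG or GGGCGTGG for KLF, TCAAGGTCA for ESRRB and NR5A2, TTCCNGGAA for STAT3, GCCNNNGGC for TFAP2C and GTCTAGAC for SMAD, each on either strand.
Nanog promoter, chr6:122657294-122657506, both EPSC lists: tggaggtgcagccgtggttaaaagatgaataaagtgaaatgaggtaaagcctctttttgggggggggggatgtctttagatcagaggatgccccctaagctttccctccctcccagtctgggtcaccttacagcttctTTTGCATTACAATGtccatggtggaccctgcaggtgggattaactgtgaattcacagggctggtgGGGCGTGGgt
Nanog 4.5 kb upstream, chr6:122652734-122653033, all 3 lists: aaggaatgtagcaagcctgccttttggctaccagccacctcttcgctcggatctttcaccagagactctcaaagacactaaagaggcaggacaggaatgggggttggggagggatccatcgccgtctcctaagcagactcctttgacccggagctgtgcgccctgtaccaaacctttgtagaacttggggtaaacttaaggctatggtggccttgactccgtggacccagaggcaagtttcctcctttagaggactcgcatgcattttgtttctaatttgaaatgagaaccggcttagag
Nanog 8.5 kb downstream, chr6:122665801-122666100, both EPSC lists: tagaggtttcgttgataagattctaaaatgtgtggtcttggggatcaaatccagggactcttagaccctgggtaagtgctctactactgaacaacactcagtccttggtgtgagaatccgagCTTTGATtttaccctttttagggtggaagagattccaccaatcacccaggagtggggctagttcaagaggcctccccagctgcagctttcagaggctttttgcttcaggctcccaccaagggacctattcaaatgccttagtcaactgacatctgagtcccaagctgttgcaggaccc
Dppa3 1.7 kb upstream, chr6:122574567-122574866, both EPSC lists: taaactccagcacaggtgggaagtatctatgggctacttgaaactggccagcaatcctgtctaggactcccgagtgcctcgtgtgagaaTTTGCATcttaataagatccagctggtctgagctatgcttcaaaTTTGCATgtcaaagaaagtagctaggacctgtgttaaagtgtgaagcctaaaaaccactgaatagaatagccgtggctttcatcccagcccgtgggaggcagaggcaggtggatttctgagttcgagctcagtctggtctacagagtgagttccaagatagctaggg
Dppa3 7.2 kb downstream, chr6:122583426-122583725, all 3 lists: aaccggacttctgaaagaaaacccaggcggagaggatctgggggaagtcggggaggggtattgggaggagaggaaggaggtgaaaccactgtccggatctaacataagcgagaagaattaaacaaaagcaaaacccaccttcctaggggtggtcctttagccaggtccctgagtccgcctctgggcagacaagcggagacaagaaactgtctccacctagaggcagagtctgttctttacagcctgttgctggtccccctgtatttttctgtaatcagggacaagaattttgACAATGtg
Gdf3 intron, chr6:122558118-122558417, all 3 lists: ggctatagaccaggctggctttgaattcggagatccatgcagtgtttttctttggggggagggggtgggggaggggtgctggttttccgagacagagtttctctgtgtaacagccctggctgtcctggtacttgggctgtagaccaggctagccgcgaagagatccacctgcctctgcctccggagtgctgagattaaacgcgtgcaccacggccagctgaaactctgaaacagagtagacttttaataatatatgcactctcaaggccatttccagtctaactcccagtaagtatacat

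To ask where accessibility at Nanog was found in each state, its window was read list by list. It held 2 peaks of the ESC list, 6 of the D-EPSC list and 5 of the L-EPSC list. Over all 22367 protein-coding genes with windows built the same way, the medians were 2, 3 and 2 peaks. In ESCs 52.3% of these genes had at least as many peaks as Nanog, whereas 16.1% did in the D-EPSC list and 22.8% in the L-EPSC list. Longer genes have larger windows. Among the 13863 genes no longer than Apobec1, the medians were 1, 2 and 2 peaks and the shares 44.1%, 10.4% and 17.1%. Apart from the region over its start and one in the neighbouring gene Slc2a3, the regions were intergenic.

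Both ESC peaks at Nanog coincided with peaks of the other 2 lists. The upstream region, 4.5 kb before the start, was 729 bp wide in ESCs and wider in EPSCs, with 1213 bp in the D-EPSC list and 1023 bp in the L-EPSC list. The ESC peak lay wholly within both EPSC peaks. These widths were larger than or equal to those of 87.0%, 96.1% and 93.8% of the peaks in the respective lists. The other shared region, 12.6 kb downstream of the start, was narrow in each list, with 168 bp for ESCs, 134 bp for D-EPSCs and 240 bp for L-EPSCs, and only 34 bp of it was common to all 3. A width of exactly 168 bp was held by 2015 ESC peaks (6.96%), and 12.1% of the list was no wider.

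Regions of both EPSC lists without an ESC peak numbered 3 at Nanog. The promoter region reached from -288 to +146 bp about the outermost start in D-EPSCs (435 bp) and from -213 to +24 bp in L-EPSCs (238 bp). It covered 5′ UTR and intron sequence of the gene in addition to the upstream bases. The nearest ESC peak to any Nanog start was the upstream region, 4259 bp away. The downstream region at 8.5 kb began 982 bp beyond the end of the gene and measured 765 bp in D-EPSCs against 623 bp in L-EPSCs, so it was the widest of the cluster without an ESC peak. The remaining one lay 19.9 kb from the start and was 333 and 177 bp wide. A further D-EPSC peak of 599 bp, 20.8 kb from the start, lay in the 3′ UTR of Slc2a3, which encodes the glucose transporter GLUT3, and neither other list had a peak there.

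**Figure D2:**
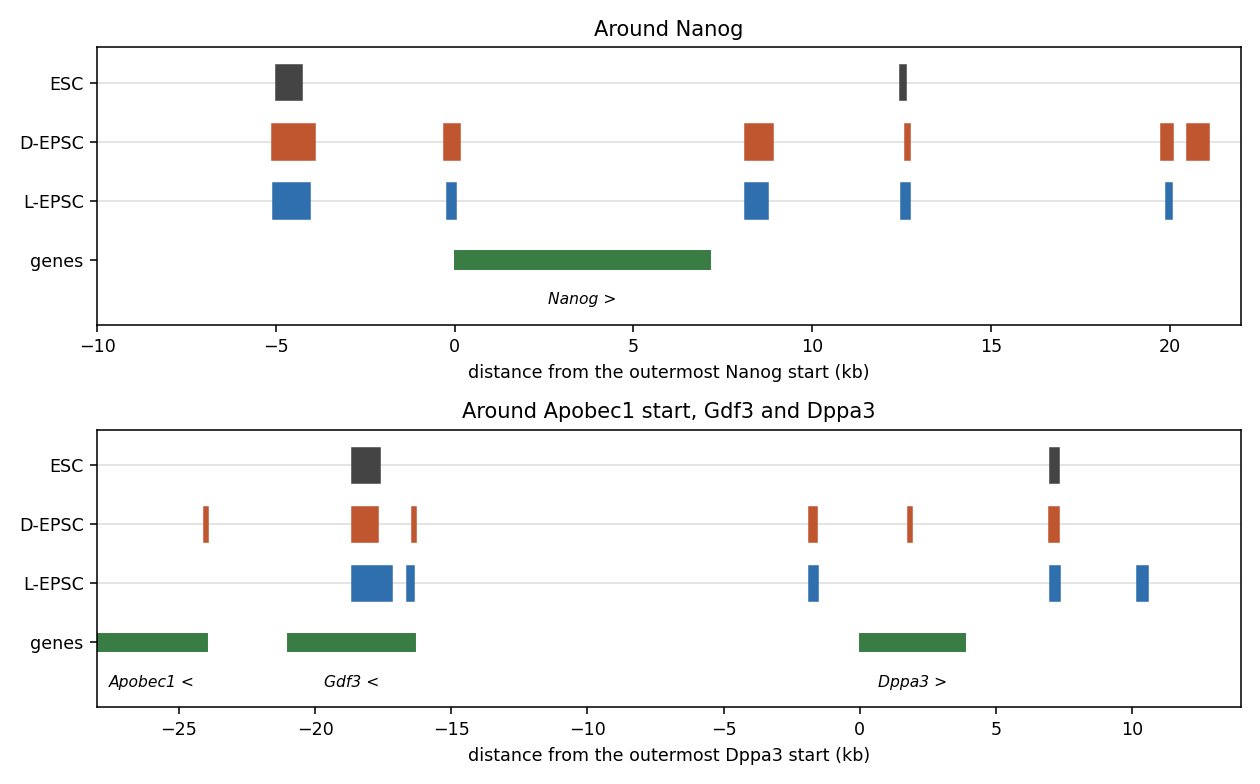
Peaks of the 3 lists at larger scale, against distance in kb from the outermost Nanog start (top) and from the outermost Dppa3 start (bottom), with genes as green bars. Box length is peak width. The boxes over the Nanog start and 8.5 kb downstream are present in the D-EPSC and L-EPSC rows and absent from the ESC row, whereas the box 4.5 kb upstream is present in all 3 rows.

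Dppa3 was the member without a peak at a start in any list. The nearest D-EPSC peak was 1415 bp from a start, the nearest L-EPSC peak 1525 bp and the nearest ESC peak 6647 bp. Both EPSC lists had a peak in an intergenic region 1.7 kb upstream, 301 bp wide in the D-EPSC list and 338 bp in the L-EPSC list, whose left edges differed by 1 bp. D-EPSCs also had a peak of 164 bp in the intron 1.8 kb after the outermost start, which was the one 1415 bp from an annotated start. The region 7.2 kb from the start, which begins 3085 bp beyond the gene, was open in all 3 lists with much the same extent, with widths of 342 (ESC), 358 (D-EPSC) and 392 bp (L-EPSC), and 316 bp of it was common to them. L-EPSCs had a further peak of 384 bp at 10.4 kb. The Dppa3 window held 2, 5 and 5 peaks in the order ESC, D-EPSC and L-EPSC, some of them shared with the window of Gdf3. At least as many were found at 52.3%, 25.4% and 22.8% of all protein-coding genes.

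At Gdf3 the widest peaks of the cluster in ESCs and L-EPSCs lay inside the gene. The intronic region 1.6 kb after the start was 1035 bp wide in ESCs, somewhat narrower in D-EPSCs (958 bp) and widest in L-EPSCs (1480 bp), and 92.4% of the ESC peak was common to all lists. The L-EPSC peak was the wider one because it continued towards the start, to 849 bp from it, against 1281 bp in ESCs and 1360 bp in the D-EPSC list. The start itself had a peak of 122 bp in D-EPSCs, reaching from -9 to +112 bp. The L-EPSC peak of 263 bp lay from +45 to +307 bp. These peaks covered the 5′ UTR and coding sequence of the first exon, and they shared only 68 bp. ESCs had none within 1281 bp. The window held 1 peak of ESCs, 5 of D-EPSCs and 4 of L-EPSCs.

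Inside Apobec1 each list had a peak at a different place, and no region in the gene was common to 2 lists. D-EPSCs alone had a peak at its outermost start, 145 bp wide, from -38 to +106 bp and overlapping the 5′ UTR. L-EPSCs had a peak of 277 bp at 11.3 kb, over a 5′ UTR, coding sequence and intron of the gene. The single region of the cluster found in ESCs only was a peak of 168 bp in coding sequence, 20.9 kb after the start. The Apobec1 window held 3 peaks of ESCs, 3 of D-EPSCs and 5 of L-EPSCs, so that ESCs and D-EPSCs had equal counts at this member. At least as many were found at 30.4%, 52.8% and 22.8% of all protein-coding genes, in the same order. The nearest region that the window of 20 kb left out began 25335 bp beyond Nanog, with peaks of 331 bp in ESCs and 294 bp in L-EPSCs.

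**Figure D3:**
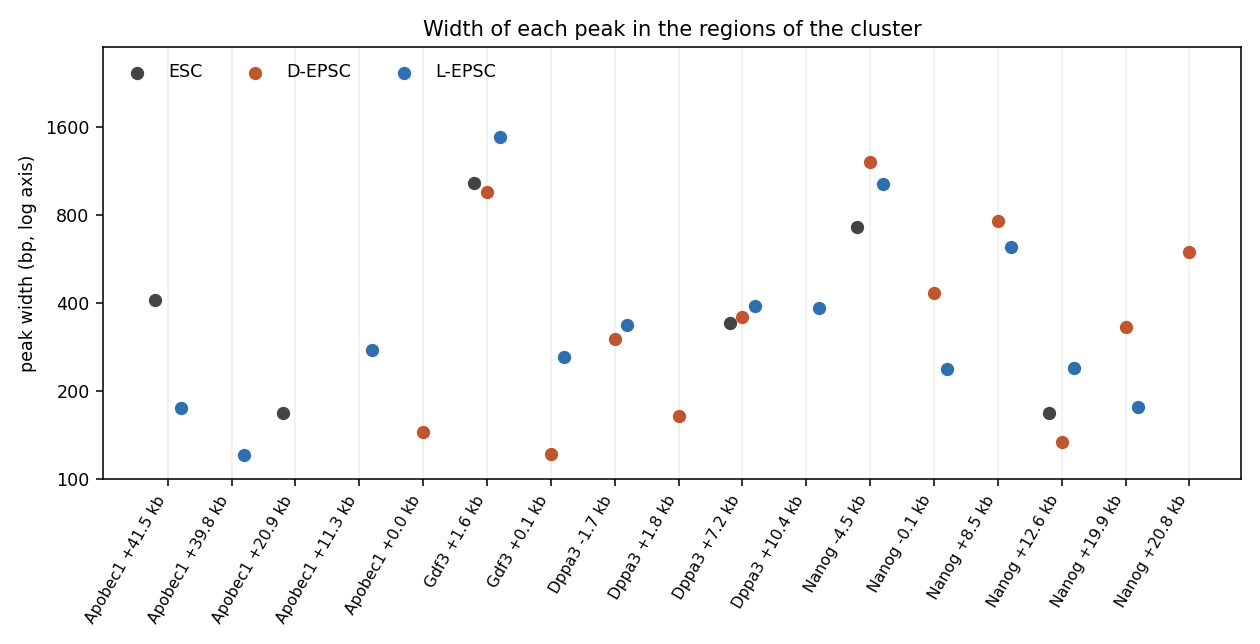
Width in bp (log axis) of every peak in the 17 regions, which are ordered along the chromosome and named by the nearest member and the distance of their midpoint from its outermost start. A missing point means that the list had no peak there. Only the regions Gdf3 +1.6 kb, Dppa3 +7.2 kb, Nanog -4.5 kb and Nanog +12.6 kb have points of all 3 colours.

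Across the 17 regions, 4 had a peak in all 3 lists (23.5%), against 33.2% of all regions of the series. Both EPSC lists and not ESCs marked 5 regions (29.4%), against 18.4% of all regions. D-EPSCs only and L-EPSCs only marked 3 regions each (17.6%), against 22.3% and 15.8% of all regions. ESCs only marked 1 (5.88%) and ESCs with L-EPSCs 1, against 5.12% and 2.92%. With so few regions, shares like these move by several percentage points with each region. The 4 shared regions had midpoints more than 1 kb from any coding start. Of the 13 such regions of the cluster, 4 were in all lists (30.8%) and 3 in both EPSC lists only (23.1%), against 22.4% and 19.2% of the 50641 such regions of the series. The share in all lists was thus below that of the series over all regions and above it over those away from starts. The EPSC lists are longer than the ESC list by 1.73 times (D-EPSCs) and 1.61 times (L-EPSCs). In the cluster they were 2.0 and 2.17 times as long, with 12 and 13 peaks against 6. Cutting the lists to equal length by width removes narrow EPSC peaks and no ESC peak, so by construction it lowers the EPSC counts only. With every list cut to its widest 28965 peaks, the length of the ESC list, the cluster held 6 ESC, 7 D-EPSC and 6 L-EPSC peaks, and 1 region, 8.5 kb downstream of the Nanog start, was in both EPSC lists only.

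Of the 6 ESC regions, D-EPSCs shared 4 (66.7%) and L-EPSCs shared 5 (83.3%), beside 81.5% and 83.0% of the ESC regions of the series. The EPSC lists had 9 regions in common, out of 12 in D-EPSCs and 13 in L-EPSCs (69.2%), beside 67.7% and 73.4% over the series, so that these shares were near the background. Counted in bases, the Jaccard index, which is the bases in both lists divided by those in either, was 0.519 between the EPSC lists, 0.321 between ESCs and D-EPSCs and 0.364 between ESCs and L-EPSCs. Over the whole genome the indices were 0.489, 0.352 and 0.389, in the same order. In the 4 regions with a peak in each list, the ESC peak was the narrowest in 2, against 59.0% of 20866 such regions. The upstream Nanog region was 1.66 times as wide in D-EPSCs and 1.4 times as wide in L-EPSCs as in ESCs, where the genome-wide medians were 1.25 and 1.21. The D-EPSC ratios of the other shared regions were below that median, at 0.926 in the Gdf3 intron, 1.05 at 7.2 kb from Dppa3 and 0.798 at 12.6 kb from Nanog. Their L-EPSC ratios were 1.43, 1.15 and 1.43, in the same order.

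The members were then compared at their starts, counting a peak within 1 kb of any annotated start. None of the 4 had one in ESCs, against 52.3% of all protein-coding genes. In D-EPSCs Nanog, Gdf3 and Apobec1 had one, against 64.2% of genes, and in L-EPSCs Nanog and Gdf3, against 61.5%. The intronic L-EPSC peak of Gdf3 also came within 1 kb, at 849 bp. In all, 2033 genes (9.09%), Nanog and Gdf3 among them, had a start peak in each of the EPSC lists but lacked one in ESCs. In the shortened lists Nanog kept its D-EPSC peak and lost that of L-EPSCs.

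**Figure D4:**
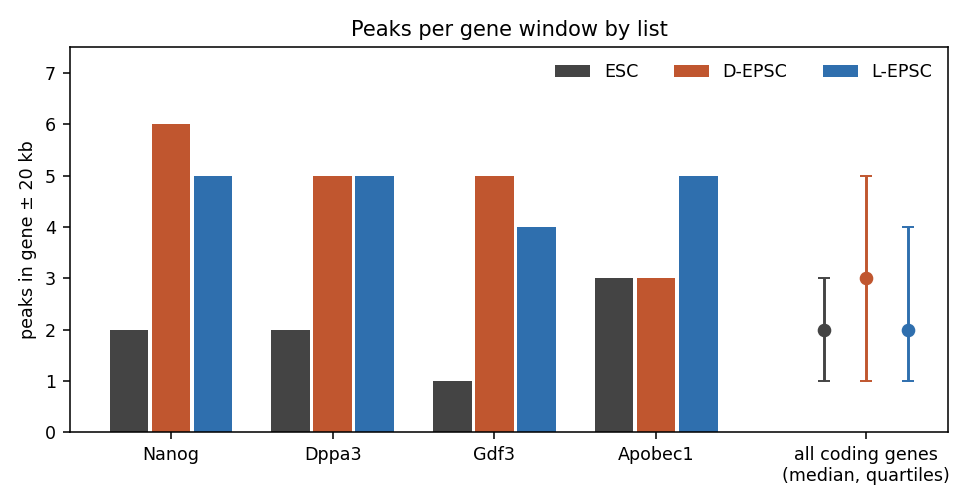
Number of peaks in the window of each member (gene with 20 kb on either side, bars) for the 3 lists, beside the median and quartiles over all 22367 protein-coding genes (points with bars). The Nanog bars stand at 2, 6 and 5, the Gdf3 bars at 1, 5 and 4, and the Apobec1 bars at 3, 3 and 5. A peak can count for more than 1 member, since the windows of Dppa3, Gdf3 and Apobec1 overlap.

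Other pluripotency genes mostly had a peak at a start in every list. Of 24 such genes, 19 had one in all 3, among them Pou5f1, Sox2 and Utf1, against 51.2% of all protein-coding genes, and 3 had the pattern of Nanog, against 9.09%. These were Nr0b1, which encodes the orphan receptor Dax1, Dppa2, a chromatin factor of early embryos, and Tdgf1, which encodes the Nodal coreceptor Cripto. Dppa4 had a peak at a start in no list, like Dppa3, and Tcl1 had one in ESCs and D-EPSCs. Of 10 genes on the Nodal and TGF-beta side of Gdf3, 4 had a start peak in ESCs and both kinds of EPSC, against 51.2% of all genes. The other 6 had one in both EPSC lists but none in ESCs, against 9.09%. These 6 were the ligands Nodal and Bmp4, the inhibitors Lefty1 and Lefty2, the coreceptor Tdgf1 and the receptor Acvr1b. Tdgf1 is also counted among the 24 pluripotency genes. The gene lists were picked when earlier results were already known, so their shares cannot be read as enrichment. Of 5 genes that act with Dppa3 on methylation or in the oocyte, 4 had a peak in all lists, beside the same 51.2%. In windows built by the same rule, Pou5f1, Sox2 and Utf1 had 20 regions, with 10 in all lists and 5 in both EPSC lists only, and Esrrb, Nr5a2 and Nr0b1 had 23, with 7 and 4. How the Nanog cluster differs from either set was not tested.

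The sequences were searched in 300 bp around the midpoint of every region. The median GC content was 50.7% in the cluster and ran from 41.3% to 55.3%, against 53.0% over all regions, and the median CpG observed/expected was 0.222 against 0.294. Over regions of the series more than 1 kb from a coding start, as 13 of the 17 are, the medians were 51.3% and 0.235, close to those of the cluster. The POU word was in 3 of the 17 regions (17.6%) and in 5.8% of all regions. They were the Nanog promoter, the region 1.7 kb upstream of Dppa3, which holds it 2 times in the sequence above, and the Apobec1 start. None of these 3 regions had an ESC peak, but searched over its whole length the Gdf3 intronic region, which is in all lists, held the POU word as well. The SOX word was in 2 regions (11.8%), against 13.9% of all regions, and the TCF/LEF word in 2, against 3.64%. The KLF word was in 1 region, the Nanog promoter, against 9.0%. Over 400 bp it was in 2 regions, against 11.1%, and over whole regions in 2, the other being the Gdf3 intron. Whole regions with the TCF/LEF word numbered 3, the Gdf3 intron included. The words for ESRRB and NR5A2 (1.14% of all regions), STAT3 (1.14%), TFAP2C (16.3%) and SMAD (0.333%) were in none of these 300 bp. Over 400 bp the TFAP2C word was in 3 regions of the cluster, against 20.2% of all regions, and over the whole regions it was in 2, the Nanog promoter and the Gdf3 intron.

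A POU word and a SOX word on the same strand with 1 base between them, as in the composite site, occurred 1 time in the whole span of 176.8 kb. This was the run TTTGCATTACAATG in the Nanog promoter sequence, from 75 to 62 bp before the outermost start, and it lay inside the peaks of both EPSC lists. Such an exact pair was found in the central 300 bp of 5 of 65518 regions (0.00763%). Sites with any mismatch were not counted, so this share does not give how often composite sites occur. The POU and SOX words in the Nanog pair are counted above as well. The pair is a match of letters without mismatch and does not show that a factor was bound. The central 300 bp of the upstream Nanog region, open in all lists, held none of the words, and its full width held none either.

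Between the windows 3 more regions lay outside the rule. The one 36.6 kb after the Dppa3 start, at -44.4 kb from that of Nanog, had a peak in all lists, with widths of 509 (ESC), 425 (D-EPSC) and 433 bp (L-EPSC). The one at -37.9 kb from Nanog was also in all lists, at 130, 306 and 247 bp. The third, 34.5 kb after the Dppa3 start, was a D-EPSC peak of 444 bp. The stretch between the windows thus held 2 regions common to all states.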

How the data were processed

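ATAC-seq libraries of ESCs, D-EPSCs and L-EPSCs were made in 2 technical replicates per state. The authors aligned paired reads to mm9 with Bowtie2 2.3.5, filtered for properly paired reads by SAMtools 1.10, and used MACS with its defaults for peak calling. Versions are from the submitters' processing notes. How replicates were combined, and whether duplicates were removed or cut positions shifted, is not given in the sources used here. Without a shift the edges of peaks would be displaced slightly, and depth and duplicates would change which narrow peaks were called. The deposited files hold the start and end of each peak, with no score, so a value here is a position or a width in bp.

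The analysis kept peaks on chromosomes 1 to 19, X and Y, of which 0 passed the chromosome ends of the NCBIM37 sequence (mm9). Peaks sharing 1 bp were merged into regions. Genes came from GENCODE M1, and Tfcp2l1 was matched through its older symbol Tcfcp2l1. The members and gene lists were chosen with earlier results of these data known. All regions of the cluster are counted, and the details of 2 regions and 1 gene list are not reported here. The sequence words were chosen by hand and are simplifications. Computation used Python 3.11.15, numpy 2.4.6 and pandas 2.3.3, and merging, window counts and word search were tested on simulated data, partly against bedtools 2.31.1. No statistical test was made. The alternatives were windows of 10 and 50 kb, 100 bp of shared bases, a reciprocal overlap of 50%, midpoints in place of overlap, lists shortened to their widest peaks, other distances from a start, coding transcripts only and other sequence lengths.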

Additional observations from a re-analysis of the deposited data

How the results depend on the processing

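No paired analysis was possible because the 2 technical replicates of a state were deposited as 1 list, which also means that leaving out a replicate was not possible. Of 57 recomputed counts, 38 stayed within 1.5 times the reported count and 19 moved. Windows of 50 kb gave 26 regions, 8 of them in all lists, with 11 ESC peaks and 20 D-EPSC peaks, since by construction they take in more sequence. Regions in ESCs only numbered 2 both with 100 bp of shared bases and with the reciprocal overlap. With the widest 28965 peaks of each list, 1 region was in both EPSC lists only and 3 in ESCs only, with 7 D-EPSC and 6 L-EPSC peaks against 6 in ESCs, and 1 member had a peak at a start in D-EPSCs (Nanog) and 1 in L-EPSCs (Gdf3, through its intronic peak). With the widest 50% there were 8 regions, 2 in all lists and 1 in both EPSC lists only, with 3, 5 and 5 peaks. Both settings by construction remove narrow peaks, including the L-EPSC peak at the Nanog start (238 bp), while the D-EPSC peak there was kept. Within 2.5 kb of a start, 1 member, Gdf3, had an ESC peak. EPSC peaks thus outnumbered ESC peaks under every window size, but the windows are nested and share peaks. The whole EPSC lists are also longer than the ESC list, by 1.73 times (D-EPSCs) and 1.61 times (L-EPSCs). At equal list length the counts were 7 for D-EPSCs and 6 for L-EPSCs against 6 for ESCs. The depth of each list is unknown, and it limits every statement on a missing peak.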
